A study of Homo sapiens with 6 samples.

Results

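The effect of vemurafenib with AT9283 on both sides was read as the combination of the drugs minus AT9283 alone, after 6 h in A375, a melanoma line of human origin that carries a BRAF mutation. The members are 2 of the 6 arrays of the series, chosen by their labels. One array held RNA of cells given 10 µM vemurafenib and 100 nM AT9283, and the other held RNA of cells given 100 nM AT9283 and no vemurafenib. Beside them stand the differences of 10 µM vemurafenib minus the solvent DMSO at 6 h and at 16 h, without AT9283. Each of those groups was also 1 array, and the 4 arrays share none with the first pair. The labels do not say whether arrays came from separate cultures, and all cells were of 1 line grown in serum-containing medium.

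Mutant BRAF signals through the kinases MEK and ERK, and vemurafenib blocks it at its kinase site. Active ERK switches on genes for its own inhibitors, such as the DUSP phosphatases and the Sprouty proteins, along with growth factors, cytokines, cyclin D1 and transcription factors of the ETS and AP-1 families. ATF4 drives transcription in the integrated stress response. Its messenger RNA is translated when kinases phosphorylate the initiation factor eIF2 alpha, and it raises genes of amino acid synthesis, amino acid transport and tRNA charging. AT9283 is a kinase inhibitor whose targets include the mitotic Aurora kinases and JAK2.

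Levels are log2 probe set intensities, and differences are differences of log2 levels. A gene is said to have fallen or risen when its difference was at least 1 (2-fold) and the higher of both arrays was at a log2 level of 6 or more, called the floor. The rule sets a size and tests nothing, because a difference between single arrays has no replicate check. Each array is bulk RNA of a culture, so a change in every cell and a change in a share of the cells cannot be told apart. The median intensity was 19.79 on the AT9283 array and 19.99 on the combination array, and the 3' minus 5' differences of ACTB and GAPDH lay between -0.15 and 0.16 on both. Of 10 melanocytic markers measured 4 reached the floor on both arrays, namely SOX10, MITF, PAX3 and TFAP2A. The pigment genes PMEL, MLANA, TYR and TYRP1 and the S100 genes S100B and S100A1 lay below it, so the pigment markers that define melanocytes are low in these cells. Of 18 markers of other lineages 5 reached the floor under AT9283 and 4 in the combination, and none rose or fell. Their summed intensity was 4315 under AT9283 and 3304 in the combination, most of it from KRT18 (log2 levels of 11.79 and 11.28), and 4785 under DMSO and 3491 under vemurafenib. The part of these markers in the results below was not tested.

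With AT9283 on both sides, vemurafenib lowered many more genes than it raised. Of 9073 genes at the floor, 179 fell (1.97%) and 41 rose (0.452%), 220 in all (2.42%), and 41 of the falls and 7 of the rises were 4-fold or larger. The lowest differences belonged to the ERK phosphatase gene DUSP6, the feedback inhibitor SPRY2, the chemokine CXCL8, the AP-1 related factor MAFF and the early response gene IER3. The highest belonged to the stem cell factor SOX2, the surface protein CD24, the sialyltransferase ST8SIA4, the exchange factor VAV3 and CHAC1, an enzyme that degrades glutathione. In the rest of the 15 lowest were DUSP4, ANKRD1, TLR4, FOXC2, EPHA2, PHLDA1, MYC, PTX3, TGFA and CXCL1, between -3.81 and -2.70. In the rest of the 15 highest were ID2, TXNIP, JDP2, RAB30, NUPR1, PCDH18, IFIT1, TMT1A, PPP2R2B and PDE4B, between 2.15 and 1.65. Just inside the size rule were SVIL (-1.003) and CALHM2 (-1.002), and just outside it were WT1 (-0.997) and RFXAP (0.974).

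Most of these responses were also seen without AT9283. Of the 179 genes that fell, 150 (83.8%) had fallen under vemurafenib alone at 6 h, which is 76.9% of the 195 that fell there (2.14% of 9095 genes at the floor). Of the 41 that rose, 35 (85.4%) had risen under vemurafenib alone, but these were only 37.2% of the 94 that rose there (1.03%). No gene over the rule in both comparisons moved in opposite directions, and all 195 falling and 94 rising genes of vemurafenib alone had the same sign with AT9283 present. The fallers of vemurafenib alone had a median of -1.42 there and of -1.31 with AT9283, and the risers a median of 1.46 and of 0.87. Since these genes were chosen on the arrays without AT9283, their values there are higher in size by that choice. Across 8885 genes with a mean log2 level of at least 6, Pearson's r between the differences was 0.895 and Spearman's rho 0.799, over genes of the same array design that are not independent replicates.

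**Figure D1:**
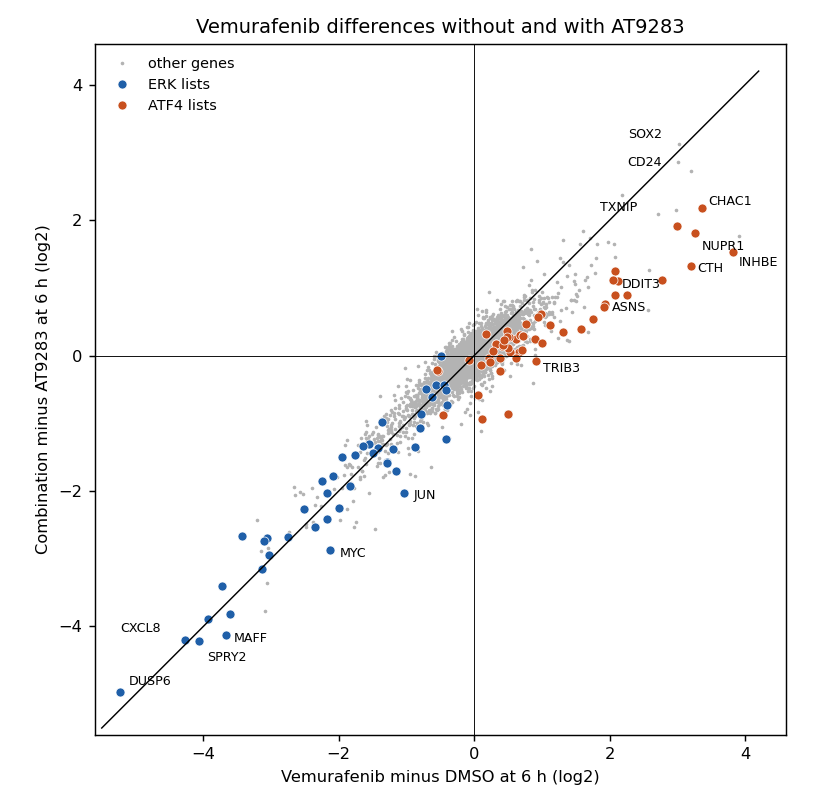
Each point is a gene at the floor on at least 1 array at 6 h, with the vemurafenib minus DMSO difference on the x axis and the combination minus AT9283 difference on the y axis, both in log2 units, and the diagonal marks equal differences. Genes of the ERK lists (blue) lie along the diagonal down to DUSP6 at -4.96 on the y axis, whereas the ATF4 list genes that were high under vemurafenib (orange) lie below it, CHAC1 at 2.17 on the y axis and 3.36 on the x axis among them.

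The later time gave a further comparison with no array in common. At 16 h of vemurafenib without AT9283, 548 genes fell (5.79% of 9469 at the floor) and 491 rose (5.19%). They included 136 of the 179 genes that fell with AT9283 present (76.0% of these and 24.8% of the 548) and 36 of the 41 that rose (87.8% and 7.33%).

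A limma fit across the 6 arrays gave the vemurafenib effect over the 3 pairs, with the pair as a block and 2 residual degrees of freedom. It called 323 of 9707 genes lower (3.33%) and 140 higher (1.44%), 463 in all (4.77%), at a Benjamini-Hochberg adjusted p under 0.05. Of the genes over the size rule in the combination minus AT9283, it called 141 of the 179 lower and 31 of the 41 higher. These genes were chosen on 1 of the 3 pairs in the fit, so part of this overlap is fixed by the choice. The error term of the fit holds how the effect varied between the pairs, which differ in AT9283 and in time, and no replicate error. The interaction of the drugs, with 1 residual degree of freedom, sets the combination minus AT9283 against the mean of the vemurafenib differences at 6 h and 16 h. It called 0 of 9707 genes with limma at an adjusted p under 0.05, and 39 genes (0.402%) had an unadjusted p under 0.05. The error term of this interaction fit is the change of the vemurafenib effect from 6 h to 16 h and no replicate error. Its empty call therefore does not show that the effects at 6 h were equal. No single gene can be said to differ in its vemurafenib effect between the backgrounds by a test, and the differences below are given as values.

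Most feedback inhibitors of the ERK pathway fell with AT9283 present, as they did without it. Of 15 such genes measured 11 fell, 0 rose and all 15 had a negative difference, with a median of -1.93 against 0.03 over all 19676 genes. Under vemurafenib alone 12 fell and the median was -1.84. DUSP6 had log2 levels of 9.51 under DMSO, 4.28 under vemurafenib, 9.35 under AT9283 and 4.39 in the combination. Both arrays without vemurafenib were thus high and both with it low, and the fall with AT9283 present was 31.2-fold (log2 -4.96, against -5.23 without AT9283). In the limma fit over the 3 pairs DUSP6 was lower by -5.14 (SE 0.09, adjusted p 0.000846). SPRY2, an inhibitor of receptor signalling to RAS, had levels of 9.55, 5.49, 9.52 and 5.31 in the same order, a fall of 4.22 with AT9283. DUSP4, a nuclear ERK phosphatase, had levels of 9.62, 6.02, 9.58 and 5.77, a fall of 3.81. For these 3 genes AT9283 minus DMSO lay between -0.15 and -0.03. PHLDA1 (-2.94), SPRED2 (-2.53), DUSP5 (-2.41), TRIB1 (-2.25), IL17RD (-1.93), ERRFI1 (-1.70), SPRED1 (-1.39) and SPRY4 (-1.37) also fell. DUSP7, a cytoplasmic ERK phosphatase, had a difference of -0.98 and fell only under vemurafenib alone, by 1.36. SPRED3 had a difference of -0.07 and lay below the floor.

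Many transcription factors downstream of ERK were lower too. Of 23 measured 14 fell, 0 rose and all 23 had a negative difference, with a median of -1.44, against 12 falls and a median of -1.29 under vemurafenib alone. IER3 had log2 levels of 10.58 under DMSO, 6.64 under vemurafenib, 10.69 under AT9283 and 6.80 in the combination, so that its difference was -3.88 with AT9283 and -3.93 without. The ETS factors ETV5 (-1.85) and ETV1 (-1.49), the AP-1 subunit FOSL1 (-2.27) and the chromatin factor HMGA2 (-1.48) fell, each by less than under vemurafenib alone (-2.24, -1.95, -2.52 and -1.76). Other members had a lower value with AT9283 than without. JUN, an AP-1 subunit, had levels of 9.84, 8.80, 9.68 and 7.66, and its difference was -2.02 with AT9283 and -1.04 without. Its interaction term in the limma fit was -1.12 (SE 0.28, unadjusted p 0.012, adjusted p 0.999). On probe sets not shared between transcripts (those without _s_at or _x_at) the JUN difference with AT9283 was -1.50. That value came from a probe set below the floor, and the 2 other JUN probe sets at the floor had -2.44 and -2.115. MYC had levels of 7.44, 5.31, 7.23 and 4.36, with differences of -2.87 and -2.13, but its levels under vemurafenib lay below the floor. KLF6 (-1.34 with AT9283 against -0.87), MAFF (-4.12 against -3.67) and IER2 (-1.07 against -0.81) had lower values with AT9283 too. Both arrays with vemurafenib were below the floor for MAFF, and its other probe set at the floor had -1.25 with AT9283. EGR1 and FOS, the classic early genes, had differences of -2.07 and -1.38 but were below the floor on both arrays.

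Secreted factors and receptors that ERK induces were lower as well, 11 of 19 measured with 0 higher and a median of -1.45 (10 lower and -1.64 under vemurafenib alone). CXCL8 had levels of 7.56 under DMSO, 3.29 under vemurafenib, 7.68 under AT9283 and 3.48 in the combination, so that only the arrays without vemurafenib reached the floor and the size of both falls is limited by background. One of its probe sets lay in the rows left out, and with those rows kept the difference was -0.13 as deposited and -5.08 with the 6 h order restored, instead of -4.20. The receptor tyrosine kinase EPHA2 had levels of 9.78, 6.64, 9.78 and 6.63, so that its falls of 3.15 and 3.14 differed by 0.01. The cytokines IL11 (-2.67) and LIF (-1.78), the EGF receptor ligands TGFA (-2.75) and HBEGF (-1.34), the urokinase receptor PLAUR (-2.03), the endotoxin receptor TLR4 (-3.41) and the adhesion receptor ADGRF1 (-2.66) fell. CXCL2 fell by 1.23 with AT9283 and had a difference of -0.42 without. The probe sets not shared between transcripts gave 0.03 with AT9283, but on levels below the floor. IL6 and CXCL3 had differences of -1.45 and -0.50 and lay below the floor.

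Over the 3 ERK lists together, 36 of 57 genes fell with AT9283 present and 34 without. In each comparison 46 of the 57 were at the floor, and 1.97% and 2.14% of all genes at the floor fell. The 34 that fell under vemurafenib alone kept a median of 97.1% of their difference (quartiles 88.3% and 110.0%), and none kept under 50%. Since 16 of these 34 lay below the floor in the combination, the size of their falls depends on values near background. The same holds for 72 of all 179 falling genes. Genes chosen on the 16 h arrays avoid the choice on the 6 h values. The 34 ERK list genes that fell at 16 h had a median of -2.18 under vemurafenib alone at 6 h and of -2.26 with AT9283, and 31 passed the size rule in each. The fall was the smaller one with AT9283 for 21 of the 34, and the median difference between the backgrounds was 0.08.

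**Figure D2:**
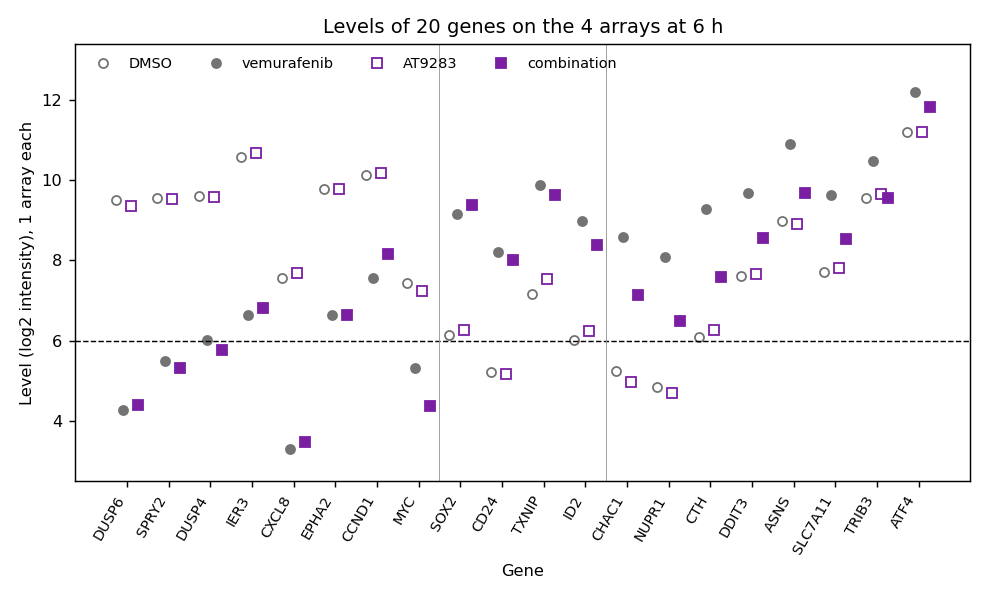
Log2 intensity on the 4 arrays at 6 h is shown for 8 genes that fell, 4 that rose outside the ATF4 lists and 8 of the ATF4 lists, 1 array per symbol, with the dashed line at the floor of 6. For DUSP6 to MYC the filled symbols (with vemurafenib) lie below the open ones in both colours, and for CHAC1 to ATF4 the combination lies below vemurafenib alone. It does so for CD24, TXNIP and ID2 as well, and not for SOX2.

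Cyclin D1 fell while most other cell cycle genes had small differences. CCND1, the ERK-dependent cyclin of G1, had levels of 10.14 under DMSO, 7.56 under vemurafenib, 10.17 under AT9283 and 8.15 in the combination, a difference of -2.02 with AT9283 and of -2.58 without. It was the only one of 17 G1 genes measured to fall, none rose, and the median was -0.01. CDC25A, a phosphatase that opens S phase, had a difference of -0.60, and CDKN1B, the inhibitor p27, one of 0.48. Of 26 DNA replication genes 0 passed the rule and the median was 0.03. Under vemurafenib alone 0 passed at 6 h (median -0.05), and 21 fell at 16 h (median -1.57). Of 25 mitosis genes 0 passed, 24 had a positive difference and the median was 0.20 (0.18 without AT9283). AURKA and AURKB, the Aurora kinases that AT9283 inhibits, had differences of 0.20 and 0.01. Of 15 ribosome biogenesis genes 0 passed and the median was -0.16.

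Genes of the ATF4 program had smaller vemurafenib differences with AT9283 present than without it. Of 57 genes on its 4 lists 50 were at the floor, 7 rose and 0 fell, where 0.452% of all genes at the floor rose. A positive difference was found for 42, against 11350 of all 19676 genes, and the median of the 57 was 0.24. Under vemurafenib alone 18 rose, 53 were positive and the median was 0.67. There 1.03% of all genes at the floor rose, and 10692 of the 19676 were positive. The difference between the backgrounds was negative for 52 of the 57 and for 9345 of the 19676, with medians of -0.47 and 0.01. CHAC1 had levels of 5.23 under DMSO, 8.59 under vemurafenib, 4.96 under AT9283 and 7.13 in the combination. The combination array thus lay between vemurafenib and the arrays without it, and the difference was 2.17 with AT9283 (4.50-fold) and 3.36 without. NUPR1, a stress-induced chromatin protein, had levels of 4.84, 8.09, 4.69 and 6.50, a rise of 1.81 against 3.26. CTH, which makes cysteine from cystathionine, had levels of 6.08, 9.28, 6.26 and 7.59, a rise of 1.33 against 3.20. The other genes that rose with AT9283 present were JDP2 (1.91), an AP-1 repressor, SESN2 (1.25), a leucine sensor of the mTOR pathway, PSPH (1.11), the last enzyme of serine synthesis, and ATF3 (1.09), a stress-induced factor. Limma interaction terms were -0.10 for CHAC1, -2.23 for NUPR1, -1.36 for CTH, -0.633 for JDP2, -0.205 for SESN2, -0.41 for PSPH and -0.635 for ATF3. At 16 h without AT9283 the differences of CHAC1 (1.18), SESN2 (0.83) and PSPH (0.99) were below those with AT9283 at 6 h. Those of NUPR1, CTH, JDP2 and ATF3 were above them.

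Several genes at the centre of the program did not pass the size rule with AT9283 present. DDIT3, which encodes CHOP, had levels of 7.61 under DMSO, 9.69 under vemurafenib, 7.67 under AT9283 and 8.56 in the combination. Its difference was 0.90 with AT9283 and 2.08 without, and its interaction term in the limma fit was -0.99 (SE 0.28, unadjusted p 0.020, adjusted p 0.999). ASNS, asparagine synthetase, had levels of 8.98, 10.92, 8.92 and 9.68, with differences of 0.76 and 1.94. These come from a probe set shared between transcripts. With AT9283 an ASNS probe set that is not shared gave -0.06, and the mean of all its probe sets was 0.35. TRIB3, a pseudokinase that limits ATF4, had levels of 9.56, 10.48, 9.64 and 9.56, so that the combination was not above AT9283 (-0.09), whereas vemurafenib alone was above DMSO by 0.92. ATF4 itself, whose control is largely translational, had levels of 11.22, 12.21, 11.21 and 11.83 and differences of 0.61 and 0.99.

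By role, the 21 stress regulators had a median of 0.32 (5 rose) against 0.99 (10 rose) without AT9283. The 12 genes of amino acid synthesis had a median of 0.42 (2 rose) against 1.03 (6 rose). In this list ALDH1L2, a mitochondrial folate enzyme, had 0.89 against 2.25, CBS 0.40 against 1.57, PSAT1 0.45 against 1.12 and PYCR1 0.08 against 0.70. The 13 amino acid transport genes had a median of -0.04 (0 rose) against 0.37 (2 rose), with the cystine transporter SLC7A11 at 0.72 against 1.91 and SLC1A4 at 0.55 against 1.76. All 12 tRNA charging genes had a positive difference, none over the rule, with a median of 0.24 against 0.46. INHBE and VLDLR had differences of 1.53 and 1.12 but lay below the floor on both arrays. SLC1A4 also lay below it on both, and had 0.008 without _s_at and _x_at probe sets. GDF15, a secreted stress factor on both an ERK and an ATF4 list, had -0.86 with AT9283 and 0.50 without. Of 9 eIF2 alpha kinase and phosphatase genes 0 passed, with a median of 0.04, and PPP1R15A, the stress-induced phosphatase subunit, had a difference of -0.88. No ER chaperone passed the rule (median -0.03 over 18 genes), and HSPA5, the main one, was at -0.02. DDIT4, an mTOR inhibitor that ATF4 and other factors raise, was measured only on rows whose 6 h values had to be put back in order, and then had 0.31 with AT9283 and 1.28 without.

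The 18 ATF4 list genes that rose under vemurafenib alone kept a median of 40.2% of their difference with AT9283 (quartiles 38.0% and 53.5%), from 18.5% for XBP1 to 64.6% for CHAC1. For the other 76 genes that rose under vemurafenib alone the median was 68.0% (quartiles 54.8% and 79.6%). Both shares are lowered by the choice of genes on the vemurafenib array, so the genes were also chosen at 16 h. The 16 ATF4 list genes that rose at 16 h had a median of 2.01 under vemurafenib alone at 6 h and of 0.83 with AT9283, and all 16 had the smaller value with AT9283. Among all 491 genes that rose at 16 h the medians were 0.47 and 0.40, and 318 had the smaller value with AT9283. Of the 41 genes that rose with AT9283 present 25 lay below the floor under AT9283, CHAC1 and NUPR1 among them, so that the size of these rises depends on values near background.

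**Figure D3:**
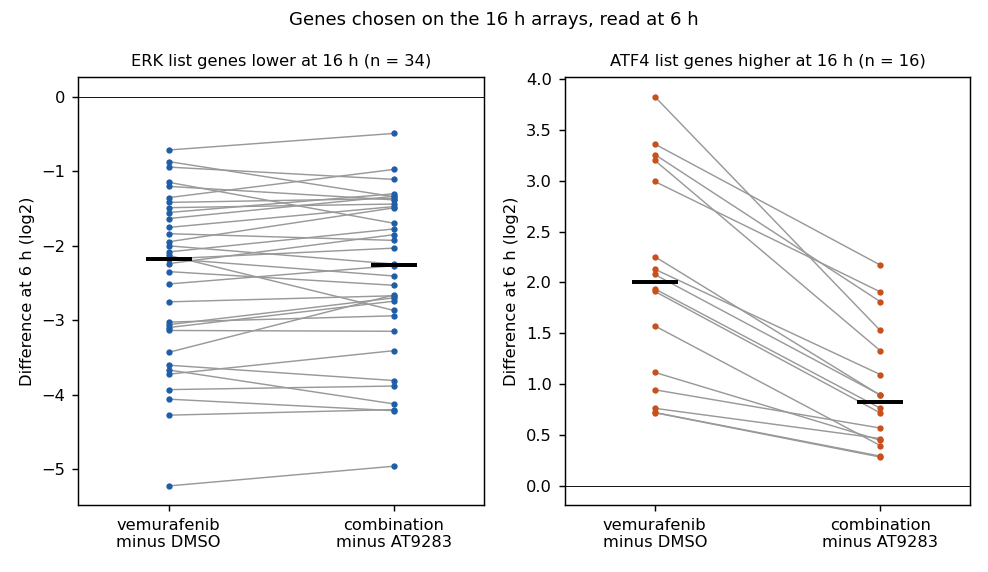
Each line is a gene chosen on the 16 h arrays, with its log2 difference at 6 h for vemurafenib minus DMSO on the left and the combination minus AT9283 on the right, and the black bars are medians. The 34 ERK list genes have medians of -2.18 and -2.26, and all 16 ATF4 list genes drop, from a median of 2.01 to 0.83.

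The sequences of the stretch before the gene start are shown for 3 ATF4 list genes with an element of the ATF4 type, and for CXCL8, a falling gene with an AP-1 element. They are the 250 bases before the start, 5′ to 3′ on the gene's strand, from RefSeq on build GRCh38.p14. Capitals mark matches to TGATGNAA, the core of the C/EBP-ATF response element, or to TGANTCA, the AP-1 element, searched on both strands. CHAC1 lies at chr15:40953221-40953470, plus strand, ASNS at chr7:97872409-97872658, minus strand, ATF3 at chr1:212565157-212565406, plus strand, and CXCL8 at chr4:73740319-73740568, plus strand.
CHAC1: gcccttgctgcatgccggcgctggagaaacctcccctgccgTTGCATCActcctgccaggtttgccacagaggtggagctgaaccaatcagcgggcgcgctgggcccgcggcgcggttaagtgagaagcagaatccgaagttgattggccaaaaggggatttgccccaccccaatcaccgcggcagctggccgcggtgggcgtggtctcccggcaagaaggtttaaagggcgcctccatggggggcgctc
ASNS: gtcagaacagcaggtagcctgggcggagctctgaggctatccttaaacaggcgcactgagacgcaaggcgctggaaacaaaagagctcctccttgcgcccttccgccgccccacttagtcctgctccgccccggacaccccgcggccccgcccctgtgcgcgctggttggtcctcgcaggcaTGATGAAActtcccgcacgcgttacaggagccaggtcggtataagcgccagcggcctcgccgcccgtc
ATF3: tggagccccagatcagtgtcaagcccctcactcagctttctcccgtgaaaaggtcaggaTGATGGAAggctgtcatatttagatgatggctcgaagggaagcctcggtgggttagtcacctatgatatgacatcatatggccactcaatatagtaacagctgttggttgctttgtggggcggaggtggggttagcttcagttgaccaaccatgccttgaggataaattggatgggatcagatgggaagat
CXCL8: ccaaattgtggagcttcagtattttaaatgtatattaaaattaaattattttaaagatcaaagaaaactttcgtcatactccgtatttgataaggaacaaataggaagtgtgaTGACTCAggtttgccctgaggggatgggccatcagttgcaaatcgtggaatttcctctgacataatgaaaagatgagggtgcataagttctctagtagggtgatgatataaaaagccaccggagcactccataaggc

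In these windows the match began at position -209 from the start in CHAC1, where it reads TTGCATCA on the gene's strand, at -68 in ASNS, at -191 in ATF3 and at -137 in CXCL8. TGATGNAA occurred in 8 of the 46 ATF4 list genes with a promoter entry (17.4%), in 0 of the 44 ERK list genes with one and in 2.21% of all 15842 protein-coding promoters. TGANTCA occurred in 4 of the 44 ERK list genes (9.09%), in 11 of the 139 falling genes with an entry (7.91%) and in 5.04% of all. It was about as frequent in the ATF4 lists (4 of 46, 8.7%) and in the rising genes (2 of 32, 6.25%). The ETS element CCGGAAGT occurred in 2 of those 139 (1.44%), in 0 of the 44 and in 5.08% of all, and the cyclic AMP element TGACGTCA in 3 of the 139 (2.16%) and 2.32% of all. The CArG box, bound by serum response factor, was matched in 3 of the 139 (2.16%) and 1.14% of all. A match to TGACGTCA cannot also be a match to TGANTCA. The ATF4 lists hold known targets of the factor, so their share is a description, and a match is not evidence of binding.

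Rises outside the ATF4 program varied in how much of their size they kept. Of the 76 such genes 14 kept under 50%, the lowest 14.9%, and the highest kept 129.9%. S100P, a calcium-binding protein, had levels of 6.45 under DMSO, 9.02 under vemurafenib, 6.46 under AT9283 and 7.13 in the combination, with differences of 0.67 with AT9283 and 2.57 without. Its interaction term in limma was -2.40 (SE 0.45, unadjusted p 0.004, adjusted p 0.999). ECM2, a matrix protein, had 1.77 against 3.91 and RAB39B, a small GTPase, 1.27 against 2.58, both below the floor under AT9283 and in the combination. Other genes had values close to those without AT9283. SOX2 had levels of 6.13 under DMSO, 9.15 under vemurafenib, 6.27 under AT9283 and 9.39 in the combination, so that its difference was 3.12 with AT9283 (8.69-fold) and 3.02 without. In the limma fit over the 3 pairs it was higher by 3.18 (SE 0.10, adjusted p 0.00264). CD24 had levels of 5.21, 8.22, 5.17 and 8.02, with differences of 2.85 and 3.01. FOXD3, a neural crest factor, had differences of 2.26 and 2.33 but lay below the floor on the 4 arrays at 6 h. SOX2 was the only one of 16 neural crest and melanocyte factors to rise, and MSX1 (-1.21) the only one to fall. SOX10 and MITF, which maintain melanocyte identity, had differences of -0.55 and 0.39. PCDH18, a protocadherin, had differences of 1.74 and 1.71, and the interferon-induced IFIT1 had 1.70 and 1.31.

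TXNIP, an arrestin that binds thioredoxin and limits glucose uptake, had levels of 7.17 under DMSO, 9.88 under vemurafenib, 7.53 under AT9283 and 9.62 in the combination. Its difference was 2.09 with AT9283 and 2.71 without, and its relatives ARRDC4 (1.38 against 1.31) and ARRDC3 (1.20 against 1.48) rose with it. These were the 3 of 18 genes on the FOXO and arrestin list that rose, none fell, and the median was 0.26. CCNG2, a cyclin of resting cells, had 0.34 against 1.69, with both arrays of the first below the floor. ID2, an inhibitor of helix-loop-helix factors, had levels of 6.01, 8.99, 6.23 and 8.38, with differences of 2.15 and 2.98. Its interaction term was -1.03 (SE 0.27, unadjusted p 0.015, adjusted p 0.999) in limma. All 4 ID genes had a positive difference, with ID3 at 0.88 and ID1 at 0.73. ERBB3, a receptor that rises when ERK is inhibited, had 0.85 with AT9283 and 1.09 without, under the rule in the first.

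Several targets of YAP and TEAD had lower values with AT9283 present than without it at 6 h. Of 16 genes on this list, which also holds WWTR1 itself, 6 passed the rule, all of them lower. Among all genes at the floor 1.97% fell. The median of the list was -0.41 against -0.25 without AT9283, where 5 fell. CCN2, a matricellular growth factor, had levels of 9.44 under DMSO, 7.67 under vemurafenib, 9.03 under AT9283 and 6.50 in the combination, with differences of -2.53 and -1.77. The activin antagonist FST had levels of 10.71, 8.97, 10.02 and 7.56, with differences of -2.46 and -1.75. ANKRD1 (-3.77 against -3.08), the clotting initiator F3 (-2.43 against -1.98) and CCN1 (-1.06 against -0.47) were lower too, while WWTR1, the YAP relative TAZ, had -1.11 against -1.23. At 16 h without AT9283 the differences of CCN2 (-3.51), FST (-3.45) and CCN1 (-2.79) were lower than those with AT9283 at 6 h. Those of ANKRD1 (-2.98) and F3 (-2.01) were not. The limma interaction terms were 0.11 for CCN2, 0.135 for FST, 0.57 for CCN1, -0.74 for ANKRD1 and -0.43 for F3. AT9283 minus DMSO, without vemurafenib, was itself -0.69 for FST and -0.41 for CCN2. Of the 16 undifferentiated-state genes measured 7 fell, among them EGFR (-1.22) and WNT5A (-1.12), and JUN, FOSL1, CCN1, CCN2 and ANKRD1, which other lists also hold.

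Of the JAK-STAT genes 12 and of the BCL2 family 12 were at the floor, and 2 and 1 of them fell, where 1.97% of all genes at the floor did. MCL1, a survival protein of the BCL2 family, had levels of 11.02 under DMSO, 9.74 under vemurafenib, 11.04 under AT9283 and 9.73 in the combination, with falls of 1.31 and 1.28. SOCS3, the feedback inhibitor of JAK kinases, had -1.65 (-1.80 without AT9283, and -0.55 with the mean of its probe sets). They were the JAK-STAT genes that fell, and MCL1 was the BCL2 family gene. BCL2L1 had -0.59 with AT9283 and -1.18 without. AEN, a p53-induced nuclease, was the only one of 18 p53 targets to fall (-1.02), and the glucose transporter SLC2A3 (-1.70) the only one of 24 glycolysis and hypoxia genes. The receptor tyrosine kinase EPHA2, which stood on an ERK list, fell by 3.15. Among the 17 genes on the separate list of receptor tyrosine kinases and adaptors EGFR was the only one to pass the rule. None of 13 genes of the RAF-MEK-ERK cascade, 16 pigment cell genes, 13 cholesterol synthesis genes, 13 NRF2 targets, 18 lysosome and autophagy genes or 11 housekeeping genes did, with medians between -0.02 and 0.15. Of 17 interferon-stimulated genes 1 rose, with a median of 0.07.

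**Figure D4:**
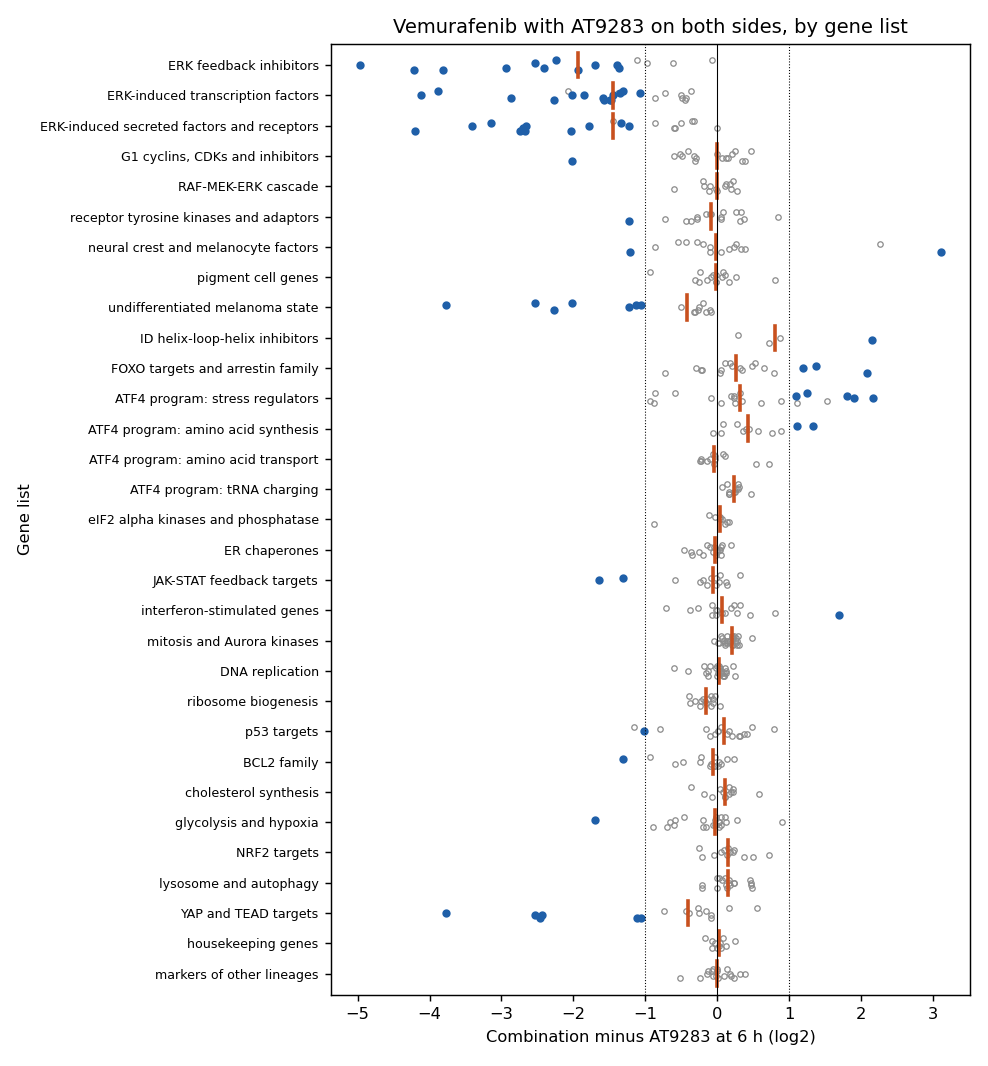
Each point is a gene, by list, with the log2 difference of the combination minus AT9283 on the x axis, filled blue where it passed the size rule and open where it did not, and the orange bar is the list's median. The 3 ERK lists lie to the left with medians of -1.93, -1.44 and -1.45, and the ATF4 lists have medians of 0.32, 0.42, -0.04 and 0.24.

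A few genes passed the rule with AT9283 present and not without it, 29 that fell and 6 that rose. Most were near the rule in both, since the 29 had a median of -1.21 with AT9283 and of -0.89 without, and the 6 had 1.34 and 0.84. Wide gaps, picked after their values were seen, were those of KLF4, a Krüppel-like factor (-1.11 against 0.09), AMIGO2, an adhesion protein (-1.64 against -0.64), and the cytokine TGFB2 (-1.22 against -0.37). FLG, also picked after its values were seen, fell by 2.56, but its level was 6.03 under AT9283 and 4.81 under DMSO. It was 1 of the 2 genes (0.0224% of 8938) over the rule for AT9283 minus DMSO. In the other direction 45 genes fell and 59 rose only without AT9283. The 45 kept a median of -0.86 against -1.17, and the 59 a median of 0.71 against 1.23.

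Other probe sets of the same gene gave a check within the arrays. Of the 179 falling genes 76 had another probe set at the floor, with at least 1 negative in all 76 and 1 over the rule in 65. Of the 41 rising genes 14 had one, positive in all 14 and over the rule in 11. For HIVEP3, a zinc finger factor, the other 3 probe sets ranged from -2.29 to 0.045, beside a difference of -1.33 on the probe set used. Some named genes rest on a probe set shared between transcripts and lost the call without such probe sets, namely HMGA2 (-0.10), PLAUR (-0.41), MSX1 (-0.17), KLF2 (-0.16), ATF3 (0.58) and TMT1A (0.10). For MSX1, KLF2 and TMT1A these values came from probe sets below the floor. DUSP6 had -6.46 without shared probe sets. With the mean of all probe sets of a gene the calls of PPP2R2B (0.72), PDE4B (0.93), PSPH (0.88), KLF6 (-0.997), SOCS3 (-0.55), EGFR (-0.49) and HBEGF (-0.67) were lost as well, and so were those of HMGA2, MSX1, KLF2, ATF3, TMT1A, CXCL2 and NOVA1. That mean takes in probe sets below the floor. The other probe sets at the floor had -1.32 and -1.31 for EGFR, -1.24 to -1.09 for KLF6, 1.125 for PSPH and -1.12 for HBEGF. Those of HMGA2 had -0.13 and -0.10 and that of ATF3 0.58, short of the rule. The rest of these genes had no other probe set at the floor. By the same mean SOX2 (1.60), MAFF (-2.69), SPRED2 (-1.002), TRIB1 (-1.36), IL17RD (-1.10), ETV5 (-1.19), ADGRF1 (-1.72), JDP2 (1.02) and RAB30 (1.01) stayed past 1 in size with a value smaller by over 1.5 times.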

How the data were processed

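The data are 6 Affymetrix arrays of biotin-labelled cRNA, 1 per condition. The deposited values are probe set intensities on a linear scale, and per the submitters' processing notes the authors used RMA, with no version given. Of 54675 probe sets, the platform annotation gave 1 symbol to 41097 and several to 1801, and 11777 had no entry. Only the first kind was named. In 6 runs of identifiers, 1118 probe sets carried 6 h values of a neighbouring row. There the correlation of both DMSO arrays was 0.455, against 0.984 once the 6 h order was restored and 0.992 on all other rows. These rows and 62 control probe sets were left out. Values were converted to log2, and the probe set with the highest mean was used for each of 19676 genes.

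The size rule was a log2 difference of 1 with the higher array at log2 6. Limma 3.58.1 in R 4.3.3 (trended prior, Benjamini-Hochberg) was fitted to genes with at least 1 array at log2 6. On simulated arrays, over 19676 genes, the size rule for the combination minus AT9283 passed 54% of vemurafenib changes of 1 and 100% of changes of 2. Limma, over 9108 genes, called 100% of both. The planted changes were equal in the 3 pairs, with noise set from the AT9283 minus DMSO differences. In the real arrays the effect also varied between the pairs, so these shares do not measure the power there. The 31 gene lists, the comparison and the tests were chosen with earlier results of these data known. Named genes were the 15 highest and 15 lowest coding genes, list members over the size rule in either 6 h comparison, the 10 highest and 10 lowest differences between the vemurafenib effects, and 26 genes chosen for the question. Other list members are given as examples. Alternatives were other scalings, floors, offsets, probe set rules and row orders, and the mean of AT9283 and DMSO as control.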

Additional observations from a re-analysis of the deposited data

Results flagged for a closer look

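GDF15 drew attention because its single arrays moved in opposite directions, with levels of 5.86 under DMSO, 6.35 under vemurafenib, 6.10 under AT9283 and 5.24 in the combination. The combination minus AT9283 was -0.86 and vemurafenib minus DMSO 0.50, each beyond 0.25, which is 2 SDs of the AT9283 minus DMSO differences across genes. That SD was taken over the 8885 genes with a mean log2 level of at least 6. GDF15 had a lower mean and is not among them, so the SD may not describe its spread. The difference at 6 h itself was not tested, since it rests on 1 array a side. Its interaction term in limma was not called (unadjusted p 0.062, adjusted p 0.999).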

How the results depend on the processing

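With 1 array per condition no replicate could be left out. No paired analysis was possible because each condition is 1 array and its replicate number only names it. The pair used as a block in limma is a vemurafenib array with its matched control array. The count of 179 lower and 41 higher genes was 187 and 39 after median centring and 168 and 40 after quantile normalization, with 73.2% to 88.1% lower over all settings. The mean of all probe sets gave 112 lower and 22 higher, and a size rule of 1.5 gave 84 and 17. The higher count was 62 at a floor of log2 5, 19 at log2 7 and 80 with no floor. Genes higher in both 6 h comparisons numbered 18 with the mean of probe sets, 18 at log2 7 and 60 with no floor, and genes lower in both 99 with the mean of probe sets. ATF4 list genes over the rule numbered 4 with the mean of probe sets, 4 without _s_at and _x_at probe sets and 3 at a size of 1.5. The median of ERK feedback inhibitors was -1.37, -2.09 and -1.66 with the mean of probe sets, without _s_at and _x_at probe sets and with 16 added to the intensity, and that of ERK-induced transcription factors -1.05, -1.16 and -1.24. The secreted factors and receptors had -1.21 with 16 added. ERK genes chosen at 16 h had -1.71 with AT9283 and -1.68 without by the mean of probe sets, -1.99 and -1.92 with 16 added, and -2.05 without AT9283 when _s_at and _x_at probe sets were left out. ATF4 genes chosen at 16 h had 0.58 and 1.365 by the mean of probe sets, and 0.65 with AT9283 without _s_at and _x_at probe sets. Limma called 212 lower and 85 higher by the mean of probe sets, and 1396 and 1448 on the 2 pairs at 6 h alone. Its interaction called 0 genes in every setting tried. Among 108 named genes and 849 gene and setting pairs, 161 moved by more than 0.12, and 2 called genes reversed, CXCL2 (0.028) and NOVA1 (-0.247), both without _s_at and _x_at probe sets. Both of these values came from probe sets below the floor. The causes were not tested. The number of arrays limits the precision, and falls to below the floor are limited by background.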
